A study of Drosophila melanogaster with 15 samples.

Results

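Trained and naïve control flies were compared in the nuclei of the mushroom body (MB), the structure of the fly brain on which olfactory and courtship memories depend. The comparison took every library labelled as a control, 8 of the 15 libraries of nuclear RNA in the series, with 4 from trained and 4 from naïve Drosophila melanogaster, and all genes except the row of the transgenic nuclear tag. All 8 control pools carried UAS-unc84::GFP together with UAS-Dicer2/R14H06-Gal4 in a w* background. R14H06-Gal4 drives, mainly in Kenyon cells (the intrinsic neurons of the MB), a GFP-tagged protein of the nuclear envelope and the RNA-processing enzyme Dicer2, so the controls carried the tag and Dicer2 as well. The other 7 libraries came from flies labelled trxKD (trx-KD here), which added the RNAi insertion P{GD4502}v37715 to the same transgenes and were trained (4 libraries) or naïve (3 libraries). Each library was made from a pool of flies, and tagged nuclei were pulled with anti-GFP beads out of a homogenate of whole heads (INTACT), so RNA of other head cells can be carried along. The labels give no training protocol, no age and no time of collection. In courtship conditioning, the assay used for such flies, a male is kept with an unreceptive mated female and later courts less. Because the labels do not say that replicates came from separate rearings, p values measure only the spread between these libraries.

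Memory that lasts needs new transcription in neurons. Calcium and cAMP signals in an active neuron switch on activity-regulated genes, among them transcription factors such as Hr38 and sr, and these change the output of later genes. Outside the brain, the fly head holds fat body, the tissue that stores sugar and fat, detoxifies, and secretes blood proteins and antimicrobial peptides under the control of insulin, the glucagon-like hormone AKH and the Toll pathway.

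Between 14154045 and 26468486 counts fell on genes in each control library, and Pearson's r of log2 CPM (each count scaled to the library's total) between replicates was 0.976 to 0.992 across genes in 12 pairs. The 3 lowest values, 0.976 to 0.984, were those of naïve replicate 4, whose counts differed from the other naïve libraries by a chi-square per degree of freedom of 44.8 to 50.8, against 7.54 to 12.2 between those, so this library stood apart from its group. The tag took 0.470% to 0.681% of counts and mitochondrial genes 0.368% to 1.02%, with the lowest mitochondrial value in naïve replicate 4. Markers of Kenyon cells summed to 17784 to 21066 CPM in naïve and 19054 to 20665 CPM in trained libraries, and none of the 17 tested was called. The eye and MB gene ey was at 358, 371, 458 and 414 CPM in naïve libraries and 482, 422, 401 and 471 CPM in trained ones, and Mef2, a Kenyon cell transcription factor, was at 692 to 805 and 769 to 862 CPM. Other head cells were present too: the rhodopsin gene ninaE reached 6101 to 11346 CPM in naïve libraries. The defining markers Arr2 and ninaA of photoreceptors and alrm and moody of glia were at 0 in all 8 libraries. Genes that lie wholly inside another gene on the other strand were at 0 in all 15 libraries in 98.6% of 1070 cases, against 2.44% of 6846 genes without any overlap, so a 0 of such a nested gene is no evidence about its expression. Of the genes called below, 32.3% of the lower and 48.4% of the higher ones overlap a gene on the other strand, against 42.2% of all genes tested, and their reads may be incomplete or shared.

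Training was followed by many small decreases and fewer increases. Of 9255 genes tested, 405 (4.38%) passed edgeR's quasi-likelihood test, with a Benjamini-Hochberg adjusted p below 0.1, and are named called here. Of these, 310 were lower (3.35% of genes tested) and 95 higher (1.03%) in trained flies, so 76.5% of the calls were decreases, while 49% of all genes tested had an estimate below 0. Calls in the gene lists below are to be read against the 4.38% called over all genes. Most decreases were moderate, with a median log2 fold change (trained minus naïve) of -0.53, and 21 went beyond -1. The increases were smaller, with a median of 0.32, and 70 of the 95 stayed within 0.5. The trained libraries did not overlap the naïve ones for 291 of the 310 lower and 93 of the 95 higher genes, against 9.67% of all genes tested.

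**Figure D1:**
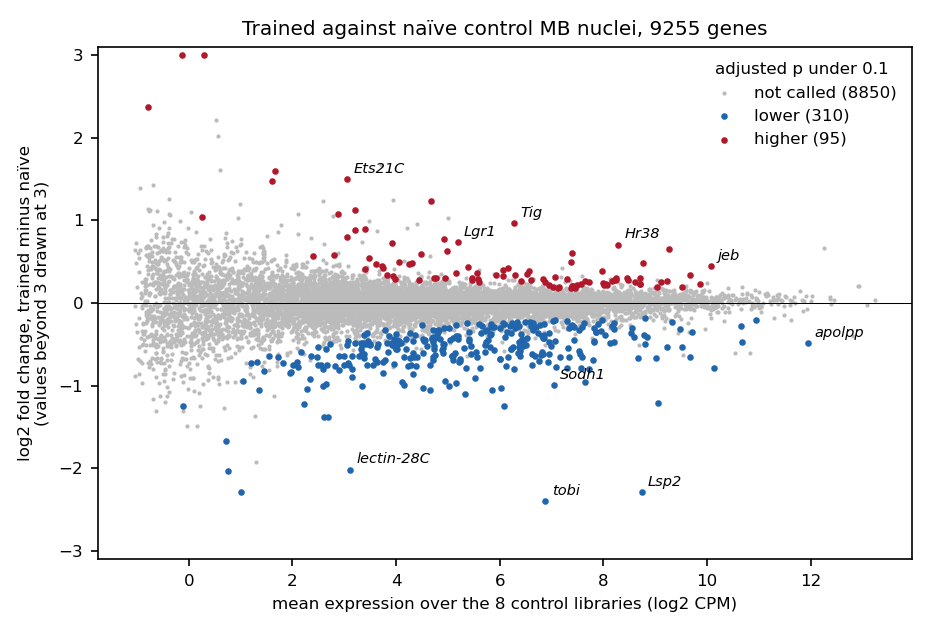
Each point is 1 of 9255 genes, placed by its mean expression over the 8 control libraries in log2 CPM (x axis) and by its log2 fold change, trained minus naïve (y axis, values beyond 3 drawn at 3). The 310 genes called lower (blue) reach to -2.40 at tobi and -2.29 at Lsp2, while most of the 95 called higher (red) stay within 0.5.

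These counts leaned on single libraries. Without naïve replicate 4 the test called 711 genes, 488 lower and 223 higher. Without trained replicate 4 it called 230 genes, 183 lower and 47 higher, and without trained replicate 3 it called 258. With all 15 libraries in one fit, 186 genes were lower, and decreases made up 63.5% of the calls.

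The steepest decrease was that of tobi, an alpha-glucosidase gene on chromosome 3R (25344761 to 25346921) known as a target of insulin and AKH signalling. Its levels were 183, 211, 203 and 196 CPM in the naïve libraries and 40.4, 36.8, 41.3 and 32.0 CPM in the trained ones. No trained library came near a naïve one, and the level fell by 81.0% (log2 fold change -2.40 ± 0.08, SE, adjusted p = 4.49e-08 by edgeR). The amylase genes Amy-d and Amy-p, which encode the starch-digesting enzyme, fell as well. Amy-d was at 85.8, 85.3, 83.3 and 124 CPM in naïve and 31.2, 45.6, 40.6 and 41.6 CPM in trained libraries, a fall of 57.9% (adjusted p = 0.000557). Amy-p fell by 50.0% (adjusted p = 0.00531). The 2 copies are nearly identical, so reads may have been split between them.

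Sodh1, a sorbitol dehydrogenase gene of the polyol pathway, showed an even separation, with 168, 185, 183 and 165 CPM in naïve libraries and 96.8, 85.5, 89.9 and 80.0 CPM in trained ones. It fell by 49.8% (log2 fold change -0.99 ± 0.07, adjusted p = 3.54e-05 by edgeR). Its paralog Sodh2 also fell (-0.78). Miox, which oxidizes myo-inositol, fell by 42.1% from 199 ± 9.2 to 116 ± 9.6 CPM (SD, n = 4 each). Galk, the galactokinase gene, fell by 41.1%, and the mannosidase genes LManI (-0.76) and LManII (-0.71) fell with it.

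Carbohydrate genes that fell reached from digestion to storage and the pentose phosphate pathway. Of 21 tested genes in a list of sugar and polyol metabolism, 7 fell, none rose and 14 were not called. The median log2 fold change of this list was -0.185, and 5 estimates were above 0. Of 8 tested in a list of carbohydrate digestion, 3 fell, none rose and 5 were not called. Its median was -0.433, and 2 estimates were above 0. A group of 22 called genes of starch, sugar and polyol use was put together by known function after their values were seen. Made of called decreases only, this group had a median log2 fold change of -0.58. It held the pentose phosphate genes Taldo (-0.59) and Rpi (-0.64), the gluconeogenic fructose-bisphosphatase fbp (-0.57), the trehalose synthase Tps1 (-0.42), and the cytosolic redox shuttle genes Gpdh1 (-0.36), Men (-0.41) and Mdh1 (-0.42). The trehalase gene Treh missed the threshold, at 157 to 178 CPM in naïve and 134 to 154 CPM in trained libraries (log2 fold change -0.21, adjusted p = 0.11). In glycolysis 11 of 12 tested genes had an estimate below 0, with a median of -0.09, and none was called.

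Genes of blood proteins fell, some of them abundant in these nuclei. Lsp2, a larval serum protein that stores amino acids, was at 456, 474, 589 and 1310 CPM in naïve and 144, 125, 188 and 122.9 CPM in trained libraries. The highest trained library lay well under the lowest naïve one, and naïve replicate 4 stood far above the other naïve libraries. The fall was 79.5% (log2 fold change -2.29 ± 0.31, adjusted p = 0.0019 by edgeR). Lsp1beta, a related storage protein, fell by 48.6% from 266 ± 48 to 136 ± 36 CPM (SD, n = 4).

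The transcript of apolpp, which encodes the apolipoprotein that carries lipids in the blood, was among the most abundant in these nuclei. It stood at 4507, 4798, 3999 and 5218 CPM in naïve libraries and 3185, 3427, 3401 and 3227 CPM in trained ones, and the groups did not overlap. It fell by 28.5% (log2 fold change -0.48 ± 0.08, adjusted p = 0.0047 by edgeR). Tsf1, the iron carrier transferrin, fell by 36.6%, and Glt, a glutactin of basement membranes, by 37.0%. The sterol-binding gene Npc2h (-0.57), the secreted growth-blocking peptide genes Gbp1 (-0.72), Gbp2 (-0.60) and Gbp3 (-0.27), and the growth factor genes Idgf2 (-0.40) and Idgf5 (-0.80) also fell.

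**Figure D2:**
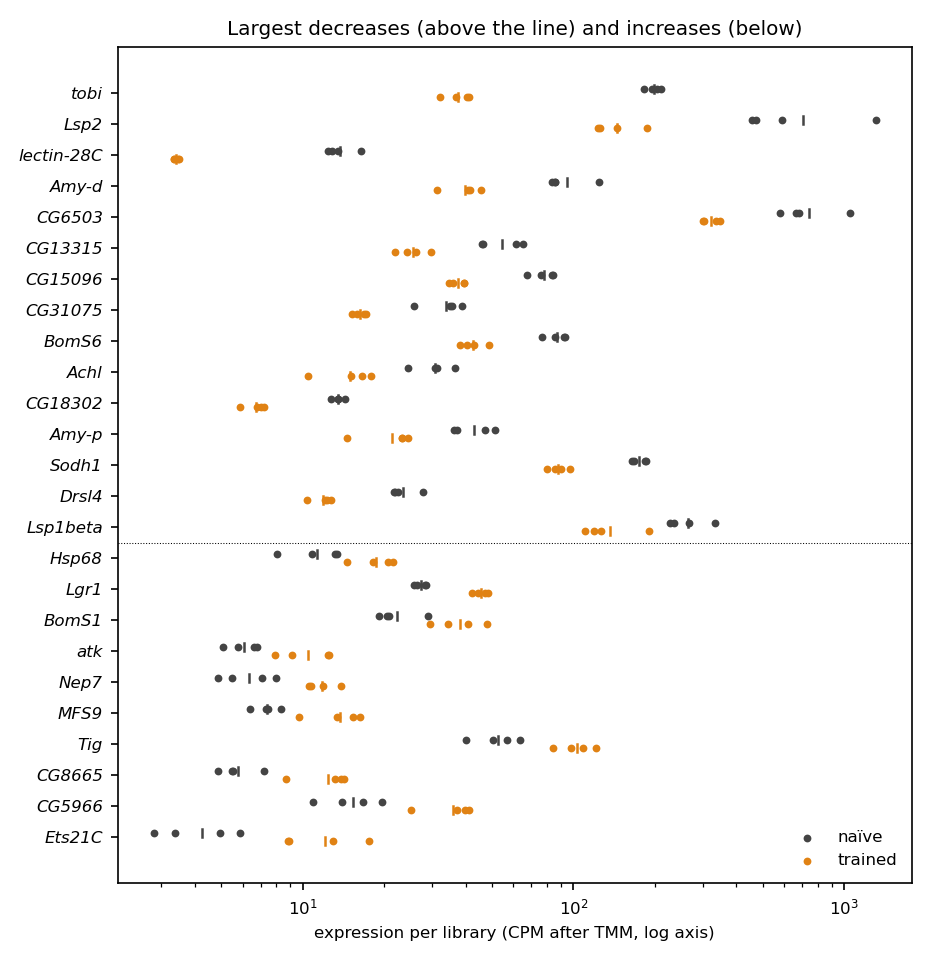
Expression per library in CPM (log axis) of the 15 largest decreases (above the dotted line) and the 10 largest increases (below) among called genes whose groups do not overlap and whose mean log2 CPM reaches 3. Each row has 4 naïve (grey) and 4 trained (orange) libraries, with a tick at the group mean; tobi drops from 183 to 211 CPM to 32.0 to 41.3 CPM, and the naïve library of Lsp2 at 1310 CPM is replicate 4.

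The remaining genes among the 15 largest decreases were CG6503 (-1.21), CG13315 (-1.10), CG15096 (-1.05), CG31075 (-1.05), Achl (-1.03), CG18302 (-1.01) and 3 immune genes described below. CG6503 was the most abundant of them, at 661, 579, 679 and 1049 CPM in naïve libraries and 336, 349, 303 and 300 CPM in trained ones.

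Most called genes of fat metabolism fell, on both its building and its burning side. Of 20 genes in a list of lipid metabolism, 7 fell and 1 rose (40% called, against 4.38% over all genes). In that list 4 were called without trained replicate 4. The gene that rose was the lipase gene Lip4 (0.42, adjusted p = 0.0881 by edgeR). CROT, a carnitine acyltransferase gene outside the list, rose too (0.47, adjusted p = 0.0306 by edgeR). On the building side, Desat1, the main fatty acid desaturase, was at 887, 906, 883 and 784 CPM in naïve and 628, 620, 591 and 562 CPM in trained libraries, with a clear gap between the groups. It fell by 30.6% (log2 fold change -0.53 ± 0.06, adjusted p = 0.000656 by edgeR). ACC and ATPCL, the acetyl-CoA carboxylase and ATP citrate lyase that supply fatty acid synthesis, fell by 21.3% and 22.5%, and AcCoAS, the acetyl-CoA synthase, had a log2 fold change of -0.39.

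On the burning side, whd, the carnitine palmitoyltransferase that lets fatty acids into mitochondria, fell by 22.8%, and the beta-oxidation gene Echs1 (-0.42) fell too. Genes of the lipid droplet fell together: Jabba, a droplet protein, by 32.2% and bmm, the droplet lipase brummer, by 29.5%. The receptor for AKH, AkhR, was at 10.5 to 14.1 CPM in naïve and 6.74 to 9.78 CPM in trained libraries and fell (-0.56, adjusted p = 0.0525 by edgeR). The largest change of this group was bgm (-0.86), an acyl-CoA synthetase for very long chain fatty acids. The 17 lipid genes grouped here, all lower, had a median of -0.37. Without trained replicate 4, 9 of the 17 were still called.

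The breakdown of phenylalanine and tyrosine fell at nearly every step. Hn, the phenylalanine hydroxylase that opens the pathway, was at 95.3, 108, 96.9 and 92.9 CPM in naïve libraries and 71.7, 62.2, 65.5 and 58.3 CPM in trained ones. It fell by 34.4% (log2 fold change -0.61 ± 0.07, adjusted p = 0.00101 by edgeR), with no overlap. Tat, the tyrosine aminotransferase of the next step, overlapped between the groups at 92.9 to 112 and 74.1 to 96.6 CPM and was not called (-0.28, adjusted p = 0.177). The steps after it, Hpd (-0.52), hgo (-0.65), GstZ2 (-0.50) and Faa (-0.80), all fell, down to the enzyme that splits fumarylacetoacetate. The genes of the pathway were gathered after their values were seen.

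Amino acid genes beyond this pathway went both ways. Of 17 tested in a list of amino acid metabolism, 3 fell and 2 rose, with a median of -0.02. The aspartate aminotransferases Got1 and Got2 fell by 30.6% and 35.2%, and P5CS (-0.48), which makes the precursor of proline, fell with them. Folate genes divided: Mthfs (-0.68) and pug (-0.42) fell, while Nmdmc, a mitochondrial folate dehydrogenase, rose from 17.8 ± 2.4 to 26.6 ± 3.8 CPM (SD, n = 4, adjusted p = 0.025 by edgeR) and Sardh, the sarcosine dehydrogenase, rose as well (0.54, adjusted p = 0.0666). CG8665 was at 5.49, 7.19, 4.86 and 5.51 CPM in naïve and 8.64, 13.2, 13.8 and 14.2 CPM in trained libraries and rose (log2 fold change 1.13). It overlaps 2 other genes on its own strand, so its counts are less certain.

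Detoxification genes fell in all 3 enzyme families examined. Of 99 tested genes that encode cytochrome P450s, glutathione transferases or UDP-glycosyltransferases, 14 fell and none rose, and 76.8% had an estimate below 0. Without trained replicate 3, trained replicate 4 or naïve replicate 2 there were 8 calls, and without naïve replicate 4 there were 23. Cyp6g1, a P450 known for insecticide resistance, was at 67.4, 70.2, 60.0 and 41.7 CPM in naïve and 33.1, 38.7, 26.5 and 29.5 CPM in trained libraries, a fall of 46.5% (adjusted p = 0.00858 by edgeR). Cyp18a1, which inactivates the steroid hormone ecdysone, fell from 8.02 ± 0.95 to 3.97 ± 0.45 CPM. Among enzymes that act on peroxide and superoxide, Cat (catalase) fell by 27.3% and Sod1 had a log2 fold change of -0.29. The carboxylesterase genes Est-6 (-0.65), alpha-Est2 (-1.22) and alpha-Est7 (-0.47) fell as well.

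Immune peptide genes moved both ways. Of 31 tested, 6 fell and 1 rose (22.6% called, against 4.38% over all genes), and 17 had an estimate below 0. With all 15 libraries in one fit, 1 of the 31 was called. BomS6, a short secreted peptide of the Toll response, was at 92.4, 76.7, 85.3 and 93.5 CPM in naïve and 40.6, 48.8, 38.2 and 42.9 CPM in trained libraries, a fall of 51.0% (log2 fold change -1.03 ± 0.09, adjusted p = 0.000133 by edgeR). BomS4, BomT2, BomBc2, Dso1 and IM33 also fell, by -0.40 to -0.69 on the log2 scale. BomS1, from the same gene cluster, rose, at 29.0, 20.9, 19.2 and 20.5 CPM in naïve and 29.5, 48.1, 41.0 and 34.4 CPM in trained libraries (0.78, adjusted p = 0.0229). The lowest trained library of BomS1 was only just above the highest naïve one, and short paralogs of this family can share reads.

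Outside that list, Drsl4, a relative of the antifungal peptide drosomycin, fell by 49.6% and SPE, the protease that activates the Toll ligand, had a log2 fold change of -0.55. In a list of 26 immune pathway components SPE alone was called, a share of 3.85%, below the 4.38% over all genes. Without naïve replicate 4 there were 6 calls. The C-type lectin gene lectin-28C, at 12.8, 13.5, 12.4 and 16.4 CPM in naïve and 3.34, 3.48, 3.48 and 3.34 CPM in trained libraries, fell by 75.3% (log2 fold change -2.02 ± 0.12, adjusted p = 8.53e-06).

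Some genes of sense organs and eye also fell. Odorant-binding proteins, which carry odorants in the fluid around sensory neurons, had 8 genes lower and none higher of 27 tested, and 9 had an estimate above 0. In the list of antennal markers, which holds some of these genes, Obp44a and Obp57c fell. Yet 8 of 12 tested had an estimate above 0, none of these was called, and the median over the 12 was 0.83. The sum of the list had a log2 ratio of -0.14, and -0.44 without trained replicate 2. Some of its genes varied widely between libraries: Obp83a was at 70.4 CPM in trained replicate 2, 7.75 to 19.6 CPM in the other trained libraries and 0.196 to 31.0 CPM in naïve ones. Obp44a was at 229, 271, 194 and 193 CPM in naïve libraries and at 180, 153, 130 and 128 CPM in trained ones (-0.59, adjusted p = 0.0304 by edgeR). Without trained replicate 3, or with all 15 libraries in one fit, 2 odorant-binding genes were called. Of the eye genes, inaC, an eye-specific protein kinase C of phototransduction, fell from 144 ± 21 to 103 ± 8.3 CPM, inaD, its scaffold, had a log2 fold change of -0.46, and Pdh, a pigment cell dehydrogenase of vitamin A, fell by 34.9%. With all 15 libraries in one fit, neither inaC nor inaD was called. The rhodopsin gene ninaE overlapped between the groups and was not called (-0.39, adjusted p = 0.284). Summed photoreceptor markers were 13690, 15750, 11704 and 18728 CPM in naïve and 11786, 11571, 13571 and 10765 CPM in trained libraries, and overlapped (p = 0.0857 by exact two-sided permutation test).

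Regulators of nutrient and hormone responses were also among the called genes. In a list of insulin and TOR signalling, 2 of 19 tested genes fell (foxo and REPTOR-BP) and 2 rose (ImpL2 and srl), with a median of 0.01. This share of 21.1% compares with 4.38% over all genes, and 1 was called without trained replicate 4. foxo, the transcription factor that insulin signalling holds out of the nucleus, was at 159, 175, 136 and 131 CPM in naïve and 79.5, 96.0, 114 and 103 CPM in trained libraries, without overlap. It fell by 34.6% (log2 fold change -0.61 ± 0.11, adjusted p = 0.0129 by edgeR). Its target Thor, the translation inhibitor 4E-BP, overlapped between the groups and was not called (-0.38, adjusted p = 0.282). sug, a transcription factor of sugar sensing (-0.71), and REPTOR-BP, a partner of the TORC1-repressed factor REPTOR (-0.52), fell.

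Kr-h1, the transcription factor induced by juvenile hormone, was at 118, 148, 117 and 113 CPM in naïve and 69.5, 74.2, 79.0 and 71.1 CPM in trained libraries and fell by 40.8% (log2 fold change -0.76 ± 0.09, adjusted p = 0.000557 by edgeR). dsx, which sets sexual differentiation, fell by 41.7% from 172 ± 30 to 100 ± 6.4 CPM (SD, n = 4, adjusted p = 0.00206). CCHa2, a peptide hormone of fat body and gut, had a log2 fold change of -0.39.

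In the circadian clock, 2 of 12 listed genes fell (16.7%, against 4.38% called over all genes) and none rose. Only 1 was called without trained replicate 4, naïve replicate 1 or naïve replicate 2. Clk, the activator at the centre of the clock, was at 96.9, 112, 80.4 and 97.7 CPM in naïve libraries and 56.9, 73.3, 78.9 and 69.8 CPM in trained ones, just without overlap (-0.47, adjusted p = 0.0449 by edgeR). cwo, a repressor of clock targets, fell too (-0.29, adjusted p = 0.0121), as did Cipc (-0.29), an inhibitor of Clk that the list does not hold. The repressors per (0.22, adjusted p = 0.307) and tim (0.16, adjusted p = 0.597) overlapped between the groups and were not called. The labels give no time of day.

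Ribosomal and respiratory genes had small, broad shifts. Of 78 ribosomal protein genes tested, 64 had an estimate below 0, with a median of -0.15, and 10 were called, all lower. RpS9 showed the largest change of the called ones, at 49.8, 40.0, 35.0 and 40.4 CPM in naïve and 28.2, 24.3, 29.3 and 23.9 CPM in trained libraries, without overlap (-0.64, adjusted p = 0.00817 by edgeR). Of 67 nuclear genes of the respiratory chain, 65 had an estimate below 0, with a median of -0.14, and 6 were called, all lower. One of them, levy, a cytochrome oxidase subunit, fell by 20.3% from 204 ± 13 to 163 ± 1.8 CPM. These calls were fragile: with upper-quartile scaling, 3 ribosomal and 2 respiratory genes were called, and without trained replicate 3 there were 2 of each. Without naïve replicate 4, 25 ribosomal and 12 respiratory genes were called. Upper-quartile scaling moved the median of all genes by 0.03 on the log2 scale.

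**Figure D3:**
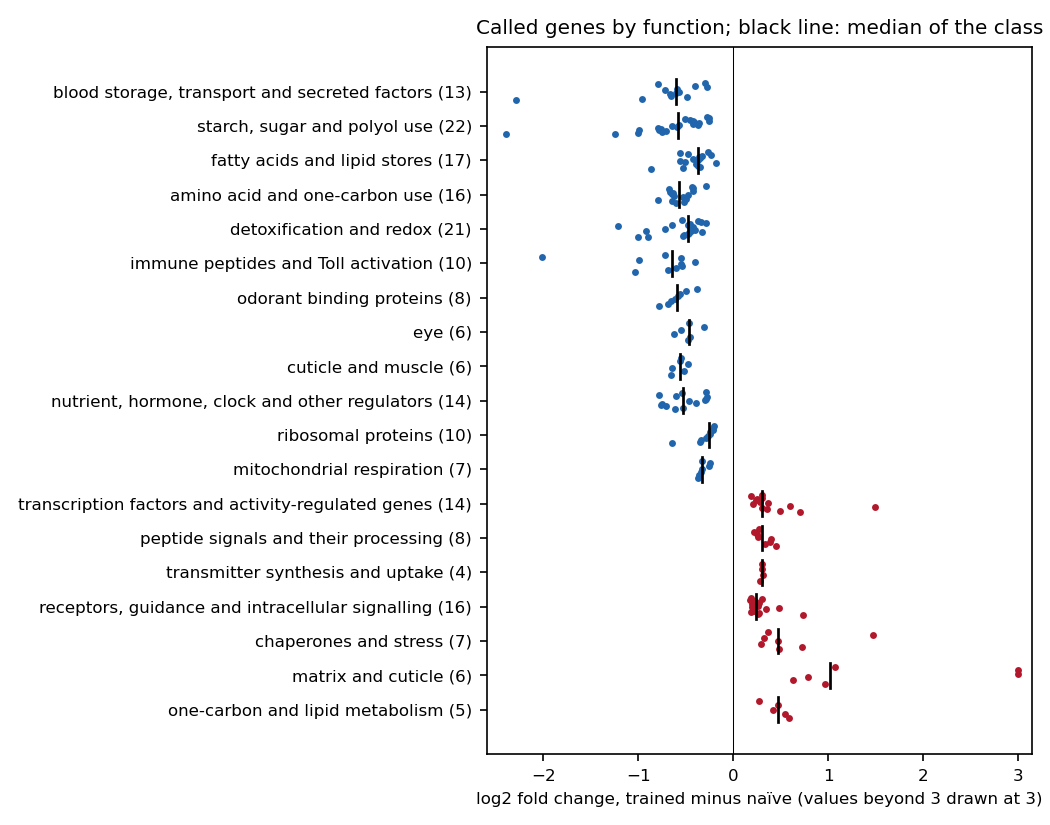
Log2 fold change, trained minus naïve (x axis, values beyond 3 drawn at 3), of called genes in 19 groups by known function, with the number of genes in each group in parentheses. Each point is 1 gene, blue for lower and red for higher. The black line is the median of the group, from -0.64 for immune genes to 1.02 for matrix and cuticle genes. The matrix and cuticle group includes Ccp84Aa and Ccp84Ab, which passed the filter only through the trained libraries. The groups were formed from called genes only and after values were seen.

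The functional groups hold 150 of the 310 lower and 60 of the 95 higher genes. Because their members were all called, their medians describe those genes only. Of the other lower genes, 6 had no symbol in the reference names used here.

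The summed level of fat body transcripts was not separate from these decreases, because it holds 5 of the genes that fell. Of these apolpp made up most of the sum, at a mean of 4630 of 7725 CPM in naïve and 3310 of 5228 CPM in trained libraries. The summed level of the fat body and hemolymph list was 7408, 7750, 6932 and 8810 CPM in naïve libraries and 5111, 5356, 5423 and 5023 CPM in trained ones. The groups did not overlap, and the log2 ratio of their means was -0.56 (p = 0.0286 by exact two-sided permutation test, the smallest that 4 against 4 can give, and 0.229 adjusted over 8 marker lists). Of 18 tested genes, 5 fell (Lsp1beta, Lsp2, apolpp, Tsf1 and Npc2h) and Apoltp, a lipid transfer particle gene, rose by 20.9% (0.27, adjusted p = 0.0158 by edgeR). Of 24 matched markers, nec was at 0 in all 8 libraries. Fewer fat body nuclei and less RNA per nucleus cannot be told apart in these bulk samples, and their part in the decreases of metabolic, detoxification and immune genes was not tested.

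Summed markers of the other cell types did not separate the groups. Muscle markers summed to 8215 to 15183 CPM in naïve and 7238 to 15405 CPM in trained libraries, hemocyte markers to 636 to 827 and 748 to 802 CPM, glial markers to 1407 to 1662 and 1300 to 1480 CPM, and antennal markers to 289 to 478 and 241 to 548 CPM. Markers of neurons other than Kenyon cells lay at 1926 to 2226 CPM in naïve and 2193 to 2386 CPM in trained libraries, an overlap at the edge (log2 ratio 0.18, p = 0.0571 by exact two-sided permutation test, 0.229 adjusted). Kenyon cell markers had a log2 ratio of 0.04 (p = 0.571 by the same exact test). By gene, some lists leaned in one direction. Below 0 were the estimates of 17 of 18 photoreceptor markers (median -0.25) and 12 of 15 glial markers (median -0.09). Above 0 were those of 16 of 17 Kenyon cell markers (median 0.06) and 18 of 21 markers of other neurons (median 0.13). Muscle (11 of 16 below 0) and hemocyte markers (6 of 11) were more mixed.

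**Figure D4:**
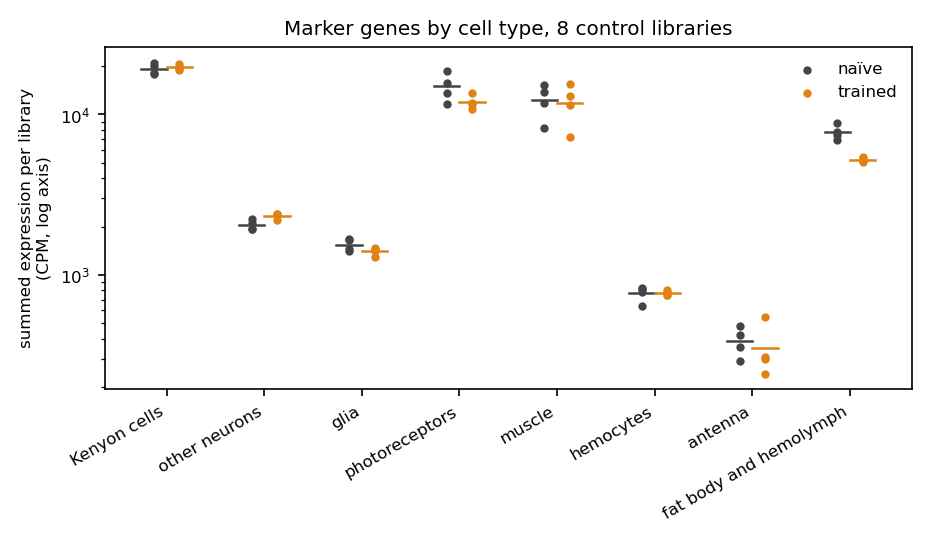
Summed expression per library in CPM (y axis, log scale) of the marker genes of 8 cell types (x axis), for 4 naïve (grey) and 4 trained (orange) control libraries, with a line at each group mean. The fat body and hemolymph sums are 6932 to 8810 CPM in naïve and 5023 to 5423 CPM in trained libraries without overlap, while the groups of all the other lists overlap.

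Genes known to follow neuronal activity were among those that rose. Of 18 tested genes in a list of activity-regulated genes, 7 rose (Hr38, sr, CrebA, CG14186, CG17778, CG14024 and CG8910), 1 fell (hry, a transcriptional repressor) and 10 were not called. Without trained replicate 4, naïve replicate 1 or naïve replicate 2, 3 of the list were called. Hr38, a nuclear receptor of the NR4A family that is among the best known reporters of activity in fly neurons, lies on chromosome 2L (20683462 to 20714588). It was at 226, 231, 271 and 220 CPM in naïve and 371, 367, 335 and 473 CPM in trained libraries. Every trained library was above every naïve one, and the level rose by 63.2% (log2 fold change 0.71 ± 0.10, adjusted p = 0.00311 by edgeR).

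sr, the fly relative of the Egr immediate-early genes, was at 146, 112, 148 and 146 CPM in naïve and 189, 190, 191 and 208 CPM in trained libraries. It rose by 40.7% (log2 fold change 0.49 ± 0.08, adjusted p = 0.00746 by edgeR), also without overlap. CG14186 was at 133, 141, 145 and 112 CPM in naïve and 205, 199, 192 and 210 CPM in trained libraries and rose by 51.6% (adjusted p = 0.00149). Arc1, a capsid-forming gene of the same list, overlapped and was not called (0.29, adjusted p = 0.543).

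Ets21C is a transcription factor of the ETS family that acts with the JNK pathway. It rose most among called genes whose groups did not overlap and whose mean log2 CPM reached 3. Its level went from 4.93, 3.39, 5.89 and 2.82 CPM to 8.88, 12.9, 8.83 and 17.6 CPM (log2 fold change 1.50 ± 0.27, adjusted p = 0.0101 by edgeR). This is low, as the median naïve level of all genes tested was 17.4 CPM. CrebA, a factor that drives genes of the secretory pathway, had trained libraries at 82.2, 102, 114 and 112 CPM against 74.3 to 86.7 CPM in naïve ones, an overlap (0.35, adjusted p = 0.0893). Atf3, a bZIP factor of stress responses, overlapped in the same way (0.30, adjusted p = 0.0822). luna (0.24), lov (0.25), net (0.30) and srl, the fly PGC-1 (0.30), also rose. Calls of this group depended on single libraries: without naïve replicate 2 or without trained replicate 4, 5 of its 14 genes were called.

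Some peptide signals, and some enzymes that mature them, rose. In a list of neuropeptides and growth signals, 4 of 29 tested genes rose, 1 fell and 24 were not called, with a median of 0.02, and 3 were called without naïve replicate 1. jeb, which encodes the secreted ligand of the receptor tyrosine kinase Alk, was at 936, 779, 899 and 1036 CPM in naïve and 1229, 1277, 1229 and 1248 CPM in trained libraries. It rose by 36.5% (log2 fold change 0.45 ± 0.08, adjusted p = 0.00738 by edgeR), with no overlap. The precursor genes Nplp1 (0.34) and Proc, which encodes proctolin (0.39), and spab (0.40) rose. Nplp1 went from 64.4 to 74.6 CPM in naïve to 84.0 to 90.2 CPM in trained libraries.

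Peptide hormones are cut out of their precursors by a prohormone convertase, trimmed by a carboxypeptidase and then amidated. amon, the convertase, rose by 19.6%, svr, the carboxypeptidase, by 18.8%, and Pal2, a lyase of the amidation step, by 16.4%. The levels of svr were 345, 338, 357 and 378 CPM in naïve and 434, 421, 406 and 424 CPM in trained libraries, without overlap (adjusted p = 0.0257 by edgeR). ImpL2, a secreted protein that binds insulin-like peptides, rose as well (0.27, adjusted p = 0.0407). Without naïve replicate 1 or naïve replicate 2, 4 of these 8 genes were called.

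A few genes of transmitter synthesis and uptake rose slightly. Gad1, which makes GABA, was at 429, 373, 372 and 324 CPM in naïve and 459, 485, 455 and 456 CPM in trained libraries (0.31, adjusted p = 0.053 by edgeR). Tbh, which makes octopamine, rose by 24.0%, Ddc, of dopamine and serotonin synthesis, by 21.5%, and the choline transporter gene ChT by 23.8%. All 4 had groups without overlap, yet 1 of the 4 was called in fits that left out trained replicate 1, 3 or 4 or naïve replicate 2 or 3. Gad1, Tbh, Proc and Nplp1 belong to the list of markers of neurons other than Kenyon cells, whose summed level is given above. They were the 4 called of 21 tested in that list, and 1 was called without trained replicate 1, trained replicate 2, trained replicate 3 or naïve replicate 2. The part of those neurons in these increases was not tested.

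Some receptor and signalling genes rose, most of them slightly. Lgr1, a receptor for glycoprotein hormones, on chromosome 3R (17725777 to 17733207), was at 25.8, 28.6, 28.3 and 26.4 CPM in naïve and 48.4, 42.2, 47.1 and 44.4 CPM in trained libraries. It rose by 67.0% (log2 fold change 0.74 ± 0.07, adjusted p = 0.000273 by edgeR), with a wide gap between the groups. Octbeta3R, an octopamine receptor, was at 180 to 184 CPM in naïve and 211 to 227 CPM in trained libraries, a rise of 20.1%. Of 47 G protein-coupled receptor genes tested, Lgr1 and Octbeta3R were called (5 without naïve replicate 4), while 37 had an estimate above 0. This share of 4.26% is close to the 4.38% called over all genes.

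Of 81 tested genes of cell adhesion and axon guidance, robo3 (0.19), beat-VII (0.22) and trn (0.34) rose and none fell, which is 3.7% against the 4.38% called over all genes. Of the 81, 90.1% had an estimate above 0 with a median of 0.09. Without naïve replicate 4, 13 of these genes were called, and 1 in each of the other fits without one library. Ion channel genes (39 of 46) and genes of synaptic release (23 of 27) also had mostly estimates above 0, with medians of 0.05 and 0.06, and none was called. In intracellular signalling, Plc21C (0.19), a phospholipase C, Dgk (0.26), a diacylglycerol kinase, sty (0.27), an inhibitor of Ras signalling, and msn (0.23), a kinase upstream of JNK, rose. Without trained replicate 4, 7 of the 16 receptor, guidance and signalling genes described by function were called.

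Some chaperone genes rose. Hsp83, the fly Hsp90, was at 406, 375, 363 and 312 CPM in naïve and 472, 533, 493 and 538 CPM in trained libraries and rose by 39.8% (log2 fold change 0.48 ± 0.08, adjusted p = 0.00586 by edgeR). Hsp68, a heat-inducible Hsp70, rose from 8.06 to 13.4 CPM in naïve to 14.5 to 21.5 CPM in trained libraries (0.73, adjusted p = 0.0401). Gp93, the chaperone of the endoplasmic reticulum, CCT5, of the chaperonin ring, and Pfdn4, of prefoldin, rose by 0.29, 0.47 and 0.32 on the log2 scale. In the list of heat shock genes and chaperones, 2 of 19 were called (10.5%, against 4.38% over all genes) and 15 had an estimate above 0. Only 1 of the list was called without trained replicate 3, trained replicate 4 or naïve replicate 2. Pfdn4 was called in 1 of the 8 fits that left out a library. MtnD, a metallothionein, rose from 1.04 to 1.84 CPM to 3.40, 3.99, 4.45 and 5.398 CPM.

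Some matrix and cuticle genes rose. Of 32 cuticle protein genes tested, 3 rose and 3 fell (Cpr72Ec, Cpr65Au and Cpr76Bc). Tig, the integrin ligand tiggrin, on chromosome 2L (6415179 to 6423310), was at 63.6, 50.5, 56.9 and 40.1 CPM in naïve and 83.8, 108, 97.9 and 121 CPM in trained libraries and rose by 95.0% (log2 fold change 0.96 ± 0.14, adjusted p = 0.00294 by edgeR). LanB2, a laminin chain of basement membranes, rose by 55.0% and atk, a matrix protein, by 73.4%.

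The cuticle protein genes Ccp84Aa and Ccp84Ab were nearly absent in naïve flies, and passed the filter on low counts only through the trained libraries. Ccp84Aa had 0 counts in all 4 naïve libraries and 24 to 42 counts in each trained library, at least 44.3-fold higher against a floor of 3 counts over the naïve group. Ccp84Ab had 7 counts over all naïve libraries and 180 over all trained ones. Both are close paralogs that may share reads. The other called increases of moderate level were CG5966, from 10.9 to 19.6 CPM to 25.2 to 41.0 CPM, MFS9 (0.90) and Nep7 (0.89), of the neprilysin family of peptidases.

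The trx-KD libraries share none with the controls, so they show the same genes in other flies. Of the 310 genes lower in controls, 222 (71.6%) had an estimate below 0 in trx-KD flies, against 51.3% of all genes, with a median of -0.20. Of the 94 higher genes tested there, 85 (90.4%) had an estimate above 0, with a median of 0.27. In trx-KD flies 50 of 9370 genes (0.534%) were called, 32 higher and 18 lower, and 15 of the lower and 21 of the higher were also called in the same direction in controls.

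The genes called in both genotypes cut across the functional groups. tobi had a log2 fold change of -2.19 in trx-KD flies (adjusted p = 0.0037 by edgeR), lectin-28C of -1.41, Kr-h1 of -0.75, dsx of -0.70, Hpd of -0.88 and bgm of -0.94. Among the increases, Hr38 was at 0.83 (adjusted p = 0.0037 by edgeR), sr at 0.76, CG14186 at 0.46, jeb at 0.49, Lgr1 at 0.72 and Tig at 0.86. Ccp84Ab was at 5.34, but near the floor, with trx-KD means of 0.0489 CPM in naïve and 2.61 CPM in trained libraries.

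Some other groups had medians near 0 or of the other sign in trx-KD flies. The 10 ribosomal protein genes that fell in controls had a trx-KD median of 0.18, and none had an estimate below 0. Over the whole lists, 33 of 78 ribosomal and 31 of 67 respiratory genes had an estimate below 0 in trx-KD flies. The 13 grouped genes of blood proteins and secreted factors kept a median below 0 there, at -0.24, with 9 in the same direction. By gene, Lsp2 was at -0.43 (adjusted p = 0.54 by edgeR), and apolpp at 0.07 (adjusted p = 0.87). BomS6 was at 0.17, and 29 of 31 immune peptide genes had an estimate above 0 there, with a median of 0.82 and none called. Gad1, Tbh and Ddc were at -0.03, -0.02 and -0.02, while ChT was at 0.27 and was called there too (adjusted p = 0.0984 by edgeR). The difference between genotypes was itself tested as an interaction on all 15 libraries, and it called 0 of 9749 genes (0%) by edgeR, with 1055 (10.8%) at an unadjusted p under 0.05, so no gene is shown to respond differently.

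**Figure D5:**
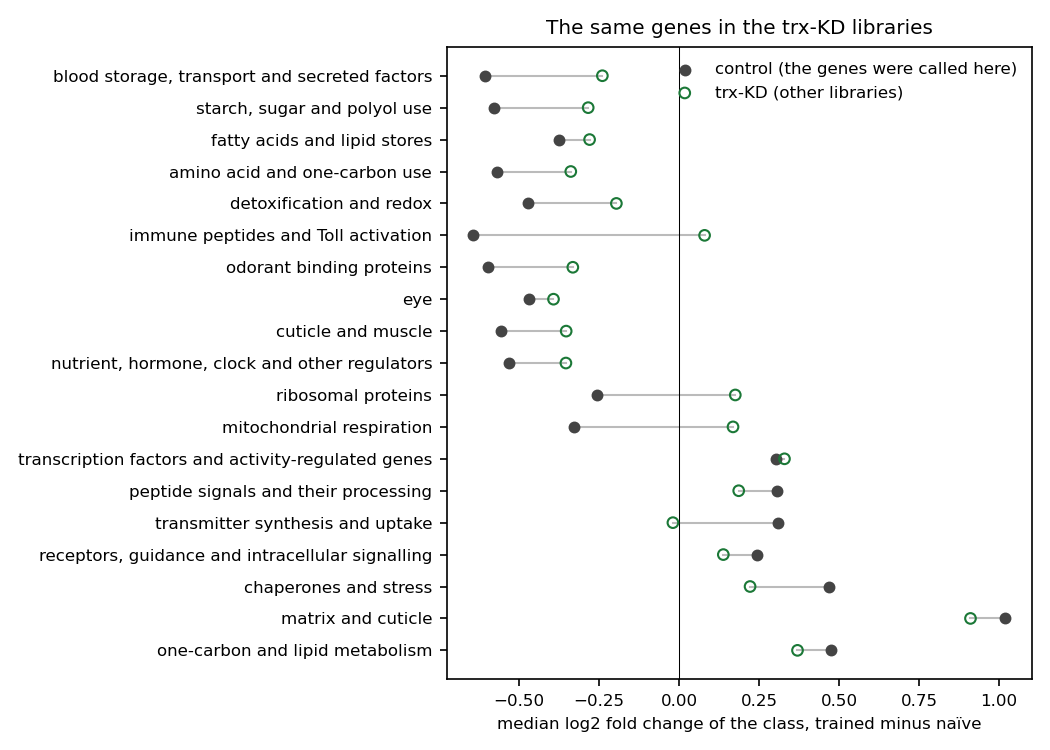
Median log2 fold change, trained minus naïve (x axis), of the genes of each functional group in control flies (filled circles, where the genes were called) and in trx-KD flies (open circles, other libraries), joined by a line. Ribosomal protein genes lie at -0.26 and 0.18 and transcription factors and activity-regulated genes at 0.30 and 0.33.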

How the data were processed

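The deposited tables, 1 for each library, hold raw read counts by gene as whole numbers, without normalization. The submitters' processing notes name STAR 2.5.3a, HTSeq 0.7.1 and the build dm6. Libraries were made with the Nugen Ovation Drosophila kit from nuclei of head pools. Whether counting used strand is not given in the sources used here. Gene symbols and coordinates (dm6) were matched by gene ID. The tag row stayed out of totals.

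Genes were kept by filterByExpr (minimum count 10, minimum total 15), scaled by TMM and tested with edgeR 4.0.16 in R 4.3.3 (quasi-likelihood, 4 against 4), with Benjamini-Hochberg adjusted p under 0.1 over all genes tested. CPM values use TMM library sizes. Errors are SD over 4 libraries, or SE for log2 fold changes. Marker sums were compared by exact permutation over 70 labellings.

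The comparison, the gene lists and the functional groups were chosen with earlier results of these data known, and the groups from called genes. Named are the 15 largest decreases and 10 largest increases whose groups do not overlap and whose mean log2 CPM reaches 3, called members of the lists, called genes of known function, and some uncalled genes picked after their values were seen. Gene lists got no set test. Of the lists not described, that of stress response had 4 of 18 tested genes called (22.2%). That of steroid and juvenile hormone had 3 of 20 called (15%), and that named for gut serine proteases 2 of 6 (33.3%). All of these calls were decreases, and the 3 shares were above the share called over all genes. The other lists not described held 2 calls or fewer. Promoter motifs were not searched, because no promoter sequences were used here. Alternatives were DESeq2 1.42.0, upper-quartile or library-size scaling, other filters, all 15 libraries, a replicate block, a threshold of 0.05 and leaving out each library.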

Additional observations from a re-analysis of the deposited data

Results flagged for a closer look

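In groups of 4 libraries, a library stands apart where its gap to the nearest other exceeds Dixon's critical share of the group's range at the 95% level. The groups tested were those of the named genes, the marker sums, and the total counts and mitochondrial, rRNA and tag shares of the libraries. Of these 486 groups, 29 (5.97%) had such a library, where chance gives about 1 in 20. Naïve replicate 4 held 7 of them, beside the lowest mitochondrial share. All values are in CPM, and each is given with the range of the other 3 libraries of its group.

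Naïve replicate 4 was high for genes that fell after training: Lsp2 at 1310 against 455.6 to 589.1, Amy-d at 123.9 against 83.3 to 85.77, Drsl4 at 27.93 against 21.7 to 22.59, Pgm1 at 162.8 against 130 to 133.9 and ND-20 at 68.25 against 54.23 to 56.28. It was low for fbp at 31.13 against 36 to 36.78, and for Cpr47Ef at 1.76 against 5.494 to 5.893. The other naïve libraries stood apart for fewer genes. Replicate 2 was high for P5CS at 401.2 against 320.6 to 328.9, Kr-h1 at 148.2 against 113.3 to 118.1 and RpS15 at 180 against 163.8 to 165.6, and low for sr at 112.5 against 145.7 to 148.4. Replicate 3 was high for Rgl at 176.3 against 162.3 to 163.1 and low for CROT at 8.999 against 10.56 to 10.71. Replicate 1 had Ccp84Ab at 0.2242 against 0.0391 to 0.0691.

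Trained replicate 1 was low for Amy-p at 14.61 against 23.18 to 24.57, Gpdh1 at 187.3 against 208.4 to 211.7, Jabba at 51.51 against 61.98 to 63.56, BomS4 at 2.921 against 3.616 to 3.751 and TpnC25D at 44.18 against 64.14 to 67.5. It was high for Cyp305a1 at 16.28 against 13.5 to 13.77 and amon at 655.4 against 573.6 to 583.3. Trained replicate 2 was high for Dso1 at 154 against 120.2 to 124.8 and Gad1 at 484.6 against 455.3 to 458.8. Trained replicate 3 was high for mino at 51.16 against 39.78 to 41.38 and eas at 80.31 against 71.07 to 72.32. Trained replicate 4 was high for sr at 207.6 against 189.2 to 191, and low for fbp at 20.26 against 24.52 to 24.92, Cyp12a4 at 19.33 against 22.39 to 22.72 and the summed markers of neurons other than Kenyon cells at 2193 against 2365 to 2386.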

How the results depend on the processing

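The number of calls depended on the processing. In fits without one library, 230 to 711 genes were called, with 47 to 223 higher and 183 to 488 lower. The lowest values came without trained replicate 4 and the highest without naïve replicate 4. An adjusted p under 0.05 left 56 genes higher (277 in all), and the fit of all 15 libraries called 186 lower. DESeq2 called 553 genes, 403 of them among the 405. Of the 222 named genes that were called, 101 kept the call under every alternative, 119 in all 8 fits without one library, and none changed sign. Replicate numbers did not pair the samples: the deviations of trained and naïve libraries of the same number correlated at -0.382, 0.17, -0.405 and -0.231. With the replicate block, 246 genes were called, 39 of them higher. Depth limits genes of few counts, such as Ccp84Aa and Ccp84Ab.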

Other observations

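Several gene groups of general cell function held few or no calls. Of 44 translation factor genes, 71 mitochondrial ribosomal protein genes, 33 proteasome genes and 25 actin cytoskeleton genes tested, none was called, with medians of -0.04, -0.07, -0.06 and 0.01 on the log2 scale. Of 20 genes of the tricarboxylic acid cycle and pyruvate entry, Mdh1 and Mpc1 fell, and 17 had an estimate below 0.

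Of 264 long noncoding RNA genes tested, 4 fell and 1 rose, and 132 had an estimate below 0. This share of 1.89% is below the 4.38% called over all genes. lncRNA:CR43417 went from 8.31 CPM in naïve to 4.16 CPM in trained libraries (log2 fold change -0.98, adjusted p = 0.00597 by edgeR), and lncRNA:CR45347 from 106.7 to 127.5 CPM (0.26, adjusted p = 0.0216). Among 15 tested glial markers 1 was called (6.67%, against 4.38% over all genes). It was Mdr65, a transporter of the blood-brain barrier, which fell from 49.0 to 36.1 CPM (-0.44, adjusted p = 0.0326 by edgeR). Mdr65 was not called without trained replicate 3 or without trained replicate 4.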
